A study of Arabidopsis thaliana with 3 samples.

Results

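HY5, its homologue HYH and 6 genes of B-box (BBX) proteins were examined for chromatin immunoprecipitated with the zinc-finger protein TZP and with the zinc-finger homeodomain protein ZFHD10. The 8 genes were taken by locus: HY5 (AT5G11260), HYH (AT3G17609), BBX4 (AT2G24790, also COL3), BBX20 (AT4G39070, also BZS1), BBX21 (AT1G75540, also STH2), BBX22 (AT1G78600, also LZF1), BBX24 (AT1G06040, also STO) and BBX25 (AT2G31380, also STH). They are 8 of the 27432 protein-coding genes on the nuclear chromosomes of Arabidopsis thaliana. All enriched regions, called islands, that overlapped a gene or the 1000 bp on either side of it by at least 1 bp were taken.

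HY5 and HYH are basic leucine zipper (bZIP) transcription factors that promote the development of seedlings in light and restrain growth of the hypocotyl. In darkness the ubiquitin ligase COP1 with its SPA partners marks HY5, HYH and several B-box proteins for degradation, and blue light acting through cryptochromes relieves this. BBX4, BBX20, BBX21 and BBX22 are known as promoters of light development, of which BBX20, BBX21 and BBX22 act together with HY5, while BBX24 and BBX25 are known to bind HY5 and to oppose its action.

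Anti-GFP chromatin was sequenced from 3 genotypes with 1 library per genotype: the wild type (Col-0), OX TZP, which overexpresses TZP, and OX ZFHD10, which overexpresses ZFHD10. GFP is named in all 3 titles. All seedlings were 7 days old and grown throughout in low blue light on plates without sucrose. The lists of OX TZP and OX ZFHD10 are described here; a list of Col-0 was not analysed here. The labels do not say which promoter drives either transgene or how many transformed lines were used.

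The OX TZP list held 11675 nuclear islands and the OX ZFHD10 list 16122, with 2028493 and 4731495 reads inside them. Read density is given as reads per kb of island with a 95% Poisson interval, which covers counting error only, and is compared within a list, since the depth of the whole libraries is unknown. The median island had 163 reads per kb in OX TZP and 262 in OX ZFHD10. The percentile of an island is the share of islands in its own list with a lower density. With 1 library per line no value has a replicate check, and no difference was tested.

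All 8 genes carried an OX ZFHD10 island and 7 carried an OX TZP island, the exception being BBX4. The genes were chosen with earlier results of these lists known, so the counts are a description. Among all protein-coding genes 65.9% had an OX ZFHD10 island in the same window and 47.2% an OX TZP island. At 6 of the 8 genes islands of both lines overlapped each other, against 26.6% of all genes, and at HYH they did not. Among genes with islands of each line, these overlapped at 6 of 7 members and at 72.5% of all genes. Over such genes within the members' range of lengths the share was 76.1%. Islands of each line, overlapping or not, were present at 7 of 8 members (36.7% of all genes), and BBX4 was the 1 member with an OX ZFHD10 island alone (29.2%). No member had an OX TZP island alone (10.5% of all genes) or lacked islands altogether (23.5%). HY5 and BBX21 had a pair of OX ZFHD10 islands, or 2 of 8 members, where 23.5% of genes had 2 or more, while no member had more than 1 OX TZP island (12.3%). The 7 OX TZP and 10 OX ZFHD10 islands all touched the gene itself, though the part of an island inside the gene ranged from 5.71% to 100%. Over all genes 34.3% had an OX TZP island touching the gene and 54.3% an OX ZFHD10 island. These shares count genes without an island as not touched. Of genes with an island in the window, 9417 of 12954 had one touching the gene in OX TZP. In OX ZFHD10 these were 14886 of 18089. An overlapping pair touched the gene at 6 of 8 members, against 18.2% of all genes. It did so at all 6 members with such a pair and at 4998 of the 7299 genes with one. None of the 17 islands was shared between members.

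**Figure D1:**
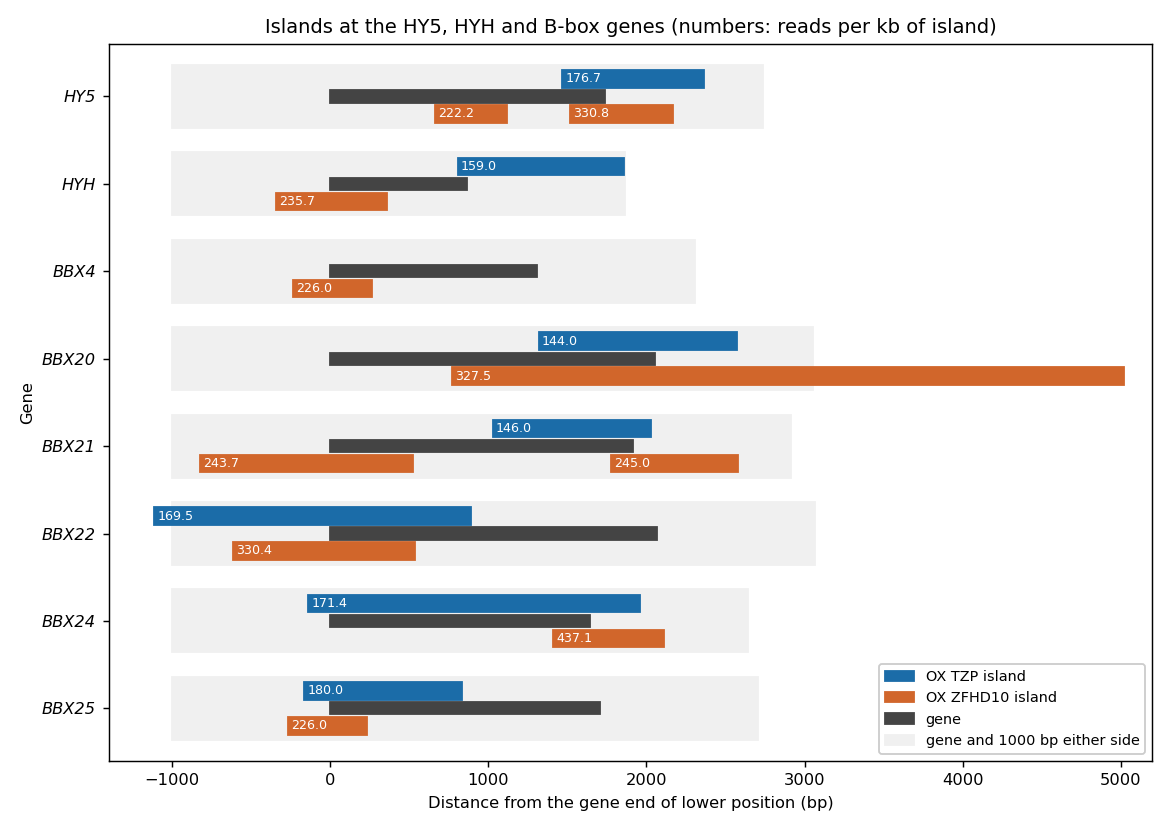
Islands of OX TZP (blue) and OX ZFHD10 (orange) at the 8 genes (dark bars), by distance in bp from the gene end of lower chromosome position, with reads per kb printed on each island. The islands lie over one end of the gene in most cases, and the OX ZFHD10 island of BBX20 extends 2966 bp beyond the gene.

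The HY5 gene had one strip of chromatin found in both lists, over its end of higher position. In OX TZP it held 159 reads in 900 bp (chromosome 5, 3594801 to 3595700, TAIR10), a density of 177 reads per kb (150 to 206) that ranked 2770 of 11675. In OX ZFHD10 it held 215 reads in 650 bp (3594851 to 3595500), a density of 331 reads per kb (288 to 378) that ranked 2879 of 16122. By reads in place of density these islands were at percentiles 58.3 and 53.3, against 76.1 and 82.1 by density. The OX ZFHD10 island lay wholly within the OX TZP one and covered 72.2% of it. Both reached across the 200 bp between HY5 and OCP3, a homeodomain gene of disease resistance, so that 273 bp of the OX TZP island lay in HY5 and 427 bp in OCP3. For OX ZFHD10 these were 223 and 227 bp. Neither island can therefore be assigned to one of the neighbouring genes.

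Another OX ZFHD10 island was internal to HY5 (3594001 to 3594450), where 100 reads gave a density of 222 reads per kb (181 to 270). It ranked 12656 and had no OX TZP counterpart, the nearest OX TZP island starting 350 bp further on. A further OX TZP island of 120 reads (185 reads per kb) fell just outside the window, 1034 bp beyond the end of lower position of HY5.

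HYH was the one member with islands of each line at opposite ends. On chromosome 3, OX ZFHD10 had 165 reads between 6023501 and 6024200, a density of 236 reads per kb (201 to 275), in an island that covered 41.2% of the gene. OX TZP had 167 reads between 6024651 and 6025700, a density of 159 reads per kb (136 to 185). A stretch of 450 bp separated them. Only 60 bp of the OX TZP island lay in HYH, and 906 bp, or 86.3% of it, lay in RBL14, a gene of a rhomboid-like protein 84 bp away. Both islands were below the median density of their lists, at percentiles 40.8 in OX TZP and 31.1 in OX ZFHD10.

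Of the B-box genes that promote light development, BBX22 had the most closely centred islands of both lines. On chromosome 1, OX TZP had 339 reads between 29565751 and 29567750, a density of 169.5 reads per kb (152 to 189). OX ZFHD10 had 380 reads between 29566251 and 29567400, a density of 330.4 reads per kb (298 to 365). The OX ZFHD10 island lay wholly inside the OX TZP one, with midpoints 75 bp apart, the same distance as at HY5. Both spanned the 50 bp between BBX22 and NADK3, which encodes an NADH kinase, and NADK3 held 53.1% of the OX TZP island and 48.9% of the OX ZFHD10 island.

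BBX20 carried the longest member island. In OX ZFHD10 it ran over 4250 bp of chromosome 4 (18205401 to 18209650) and held 1392 reads, a density of 328 reads per kb (311 to 345). It was 5.31 times as long as the median island of its list and ranked 137 by length. It covered 62.5% of BBX20, then the whole of the 2714 bp to VHA-A3, a gene of a vacuolar proton pump subunit, and ended 252 bp inside that gene. The OX TZP list had a pair of islands along the same stretch, both below its median density, at 18205951 to 18207200 with 144 reads per kb (124 to 167) and at 18208451 to 18209950 with 157 (137 to 178). Together they covered 57.6% of the OX ZFHD10 island; the second started 1766 bp from BBX20, outside the window. The first was at percentile 7.99 of its list, the lowest of the 7 OX TZP islands, while the OX ZFHD10 island was at percentile 81.2. By reads in place of density the same islands were at percentiles 70.3 and 99.0, and among islands of similar length the OX ZFHD10 one was at 54.6.

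BBX21 had OX ZFHD10 islands over both ends and an OX TZP island between them and over the end of higher position. On chromosome 1, OX ZFHD10 had 329 reads between 28365001 and 28366350 (244 reads per kb, 218 to 272) and 196 reads between 28367601 and 28368400 (245 reads per kb, 212 to 282). Of these islands 39.0% and 17.25% lay in BBX21, and the second extended into the 708 bp between BBX21 and AT1G75550. OX TZP had 146 reads between 28366851 and 28367850, a density of 146 reads per kb (123 to 172). It shared 250 bp with the second OX ZFHD10 island, the smallest overlap among the 6 genes with one. All 3 islands were below their list medians. Next to the window, 1373 bp from the gene, a denser OX ZFHD10 island had 839 reads (323 reads per kb).

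BBX4, a member of the family branch that includes CONSTANS, was on the OX ZFHD10 list alone. Its island, between 10566601 and 10567100 on chromosome 2, held 113 reads in 500 bp, a density of 226 reads per kb (186 to 272) at percentile 24.1. The nearest OX TZP island lay 5285 bp away, so the absence from the OX TZP list did not depend on the width of the window up to 5000 bp. An island below the authors' limit would not appear in the list, so the list does not show that the OX TZP library had no enrichment there.

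The B-box genes known to oppose HY5 stood apart in the OX ZFHD10 list, while their OX TZP counting intervals overlapped. At BBX24, on chromosome 1, OX ZFHD10 had 306 reads between 1829751 and 1830450, a density of 437 reads per kb (390 to 489) that ranked 511 of 16122. Only 233 bp of this island, or 33.3%, lay in BBX24, covering 14.2% of the gene. The rest lay in the 487 bp between BBX24 and AT1G06050, so the island cannot be assigned to BBX24 alone. OX TZP had 360 reads between 1828201 and 1830300, a density of 171 reads per kb (154 to 190). The latter was the one island that covered a whole member gene, and it shared 550 bp with the OX ZFHD10 island, or 78.6% of the latter. The short gene AT1G06045 lies wholly within BBX24. The OX TZP island covered all of AT1G06045, and the OX ZFHD10 island covered 115 bp, or 33.4%, of it. At its other end the OX TZP island reached 79 bp into AT1G06030. By reads in place of density the OX ZFHD10 island was at percentile 70.8, against 96.8 by density, and the OX TZP island at 97.0, against 67.7.

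At BBX25 the OX TZP island had the higher percentile by point value. The ends of its counting interval stood at percentiles 29.0 and 95.3, and those of the OX ZFHD10 island at 3.19 and 56.1, so these ranges overlapped. On chromosome 2, OX TZP had 180 reads between 13381601 and 13382600, a density of 180.0 reads per kb (155 to 208) at percentile 79.8, the highest of the 7 OX TZP member islands. OX ZFHD10 had 113 reads between 13381501 and 13382000, a density of 226 reads per kb (186 to 272) at percentile 24.1. The OX ZFHD10 island lay to 80.0% within the OX TZP island. BBX25 is 5 bp from AT2G31370, which held 52.2% of the OX ZFHD10 island and 16.1% of the OX TZP island.

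Ordered by density, the OX ZFHD10 islands of the members formed 3 levels that did not overlap in their counting intervals. BBX24 stood highest with 437 reads per kb. The densest islands of HY5 (331), BBX22 (330.4) and BBX20 (328) followed, without separation from each other, and their intervals also lay above the list median of 262. The other 6 islands, at BBX21 (245 and 244), HYH (236), BBX4 (226), BBX25 (226) and inside HY5 (222), were not separated from each other, and the intervals of all 6 included the list median. Of the 45 pairs of islands, 27 had intervals apart.

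The OX TZP islands gave no such order. From the highest they were BBX25 (180.0 reads per kb), HY5 (177), BBX24 (171), BBX22 (169.5), HYH (159), BBX21 (146) and BBX20 (144). None of the 21 pairs had intervals apart, and all 7 intervals included the list median of 163. The OX TZP list is narrow, with 10th and 90th percentiles of 145 and 193 reads per kb, and counts of 146 to 360 reads per island do not resolve places within it.

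**Figure D2:**
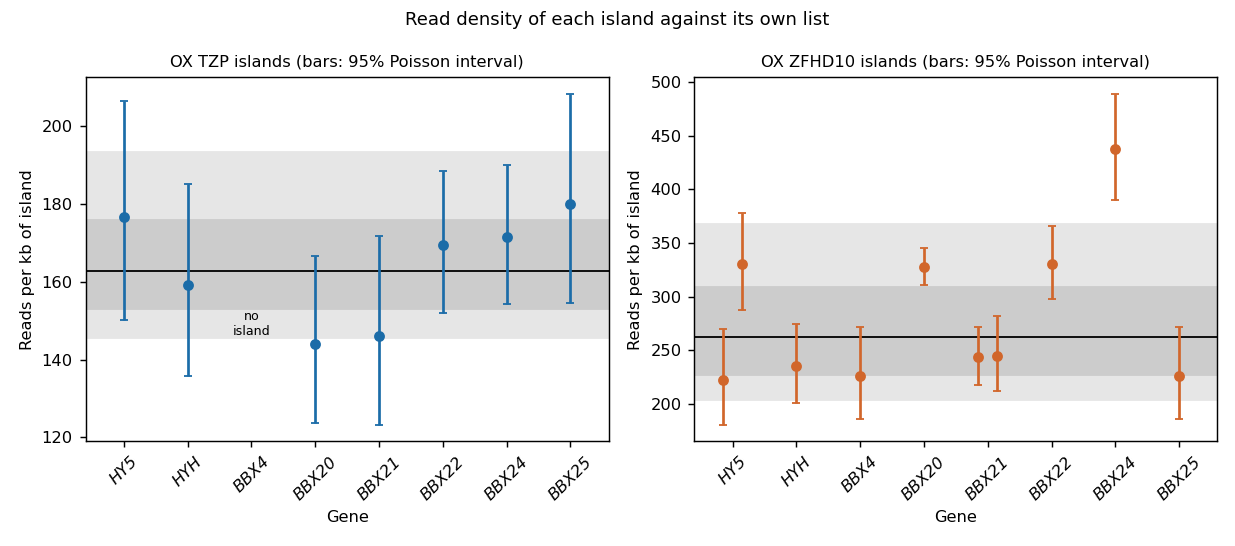
Reads per kb of each member island (points, with 95% Poisson intervals) in OX TZP (left) and OX ZFHD10 (right), over the median (line), the middle 50% (dark band) and the 10th to 90th percentile (light band) of the whole list; axes do not start at 0. In OX ZFHD10 the point of BBX24 is at 437 and those of HY5, BBX22 and BBX20 near 330, while all OX TZP intervals cross the median line.

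HY5, BBX22 and BBX24 had overlapping islands that were at or above the median density in each list. That is 3 of 8 genes, where 9.86% of all protein-coding genes had such a pair, and 13.9% had dense islands of both lines whether or not they overlapped. Of the 7299 genes with an overlapping pair, 2704 had such a dense pair, against 3 of 6 members. BBX20 was above the median in OX ZFHD10 only, BBX25 in OX TZP only, and HYH and BBX21 in neither. These places are by point values. All 7 OX TZP intervals included the list median, so counting does not resolve the OX TZP places or the 3 of 8 that rests on them. Counted by the densest island, 4 of 8 members reached the list median in OX TZP (25.1% of all genes) and 4 of 8 in OX ZFHD10 (39.8%). The shares of all genes in this paragraph count genes without an island as not reaching the mark. Among genes with an island, 6873 of 12954 reached the median in OX TZP, against 4 of 7 members. In OX ZFHD10 these were 10908 of 18089 genes and 4 of 8 members. The top 25% of the list held 2 of 8 members in OX TZP, HY5 and BBX25 (12.7% of all genes), and the same 4 in OX ZFHD10, HY5, BBX20, BBX22 and BBX24 (21.9%). Among genes with an island it held 3471 of 12954 in OX TZP, against 2 of 7 members. In OX ZFHD10 it held 6016 of 18089 such genes, against 4 of 8 members. The ends of the OX TZP counting intervals stood at percentiles 19.1 and 94.8 for HY5 and 29.0 and 95.3 for BBX25. The top 10% held none of the members in OX TZP (5.01% of all genes) and BBX24 in OX ZFHD10 (9.23%).

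Among genes with an island, the members' densest islands were close to those of other genes in OX ZFHD10 and somewhat higher placed in OX TZP, where the counting intervals do not separate them from the list median. The median percentile was 64.5 over the 7 members with an OX TZP island and 53.1 over all 12954 protein-coding genes with one. In OX ZFHD10 it was 59.5 over the 8 members and 60.1 over 18089 genes. Of the window, OX TZP islands covered a median of 28.9% over the 8 members against 0% over all genes, and OX ZFHD10 islands 26.3% against 13.3%. Unlike the percentiles, these medians count genes without an island as 0%. Since 47.2% of all genes had an OX TZP island, the median of 0% restates the count of genes with one. It does not compare the extent of islands.

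Most island midpoints at the members lay within 500 bp of a gene end, as over all genes in OX ZFHD10. In OX ZFHD10 the median distance from a midpoint to the nearer end of the member was 110 bp (6 to 848), and 8 of 10 were within 500 bp, against a median of 286 bp and 64.7% over all pairs of a gene and an island. In OX TZP the median was 333 bp (109 to 733), and 6 of 7 were within 500 bp, against 625 bp and 42.2%. The members are shorter than most genes (median 1722 against 2078 bp). Over all genes within the members' range of lengths the median was 502 bp in OX TZP, with 49.9% of pairs within 500 bp, and 305 bp in OX ZFHD10, with 64.3%. The gene table holds no strand, so starts and ends of transcription were not told apart.

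**Figure D3:**
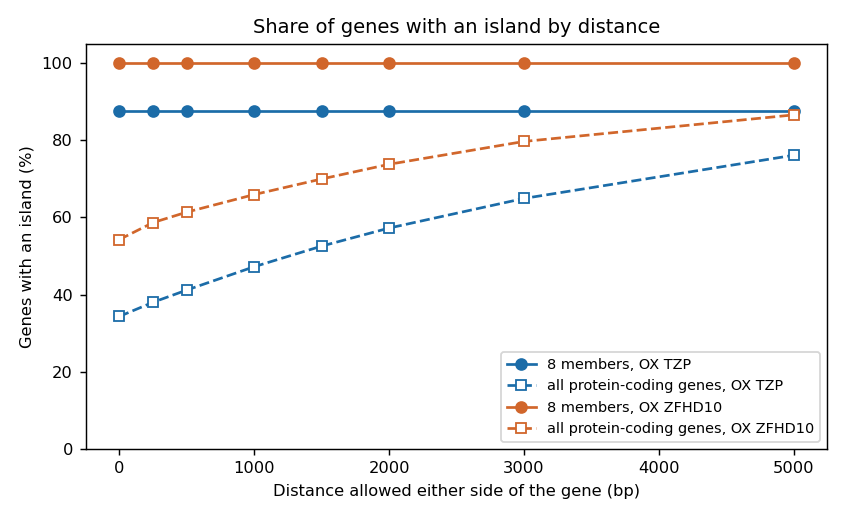
Share of genes (%) with an island, by the distance in bp allowed on either side of the gene, for the 8 members (filled points) and all protein-coding genes (open points). The members stay at 87.5% in OX TZP and 100% in OX ZFHD10 from 0 to 5000 bp, while the share of all genes rises from 34.3% to 76.1% and from 54.3% to 86.6%.

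The remaining 26 B-box genes were near the share of all genes in OX TZP and above it in OX ZFHD10. Of them 12 had an OX TZP island (46.2%, against 47.2% of all genes) and 22 an OX ZFHD10 island (84.6%, against 65.9%). BBX10 and BBX23 had none, BBX18 and BBX26 had an OX TZP island alone, and 12 had an OX ZFHD10 island alone, among them BBX1, which is CONSTANS, a promoter of flowering in long days. At all 15 B-box genes with islands of each line, members included, these overlapped; of all protein-coding genes with islands of each line 72.5% had an overlapping pair.

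The densest OX TZP islands among the other B-box genes were at BBX8 (227 reads per kb, 193 to 265, percentile 97.7), BBX6 (193, 160 to 232), BBX14 (187, 149 to 231) and BBX31 (174, 143 to 209). At BBX8 the islands of both lines began at the same position, 19563551 on chromosome 5, and ended 100 bp apart; the OX ZFHD10 island had 354 reads per kb (314 to 397). In OX ZFHD10 the densest were at BBX6 (486, 466 to 507), BBX29 (436, 408 to 467), BBX12 (400.0, 344 to 463) and BBX32 (378, 347 to 411). By point values BBX6, BBX8 and BBX14 thus had a denser OX TZP island than any member, and BBX6 a denser OX ZFHD10 island. The OX TZP intervals of BBX6, BBX8 and BBX14 overlapped that of BBX25 (155 to 208). In OX ZFHD10 the interval of BBX6 overlapped that of BBX24. At BBX6 a pair of OX ZFHD10 islands of 4550 and 4400 bp, one across each end of the gene, together covered 90.4% of the window. In the median over genes with an island, the OX ZFHD10 percentile was 77.0 for the other B-box genes and 59.5 for the 8 members.

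**Figure D4:**
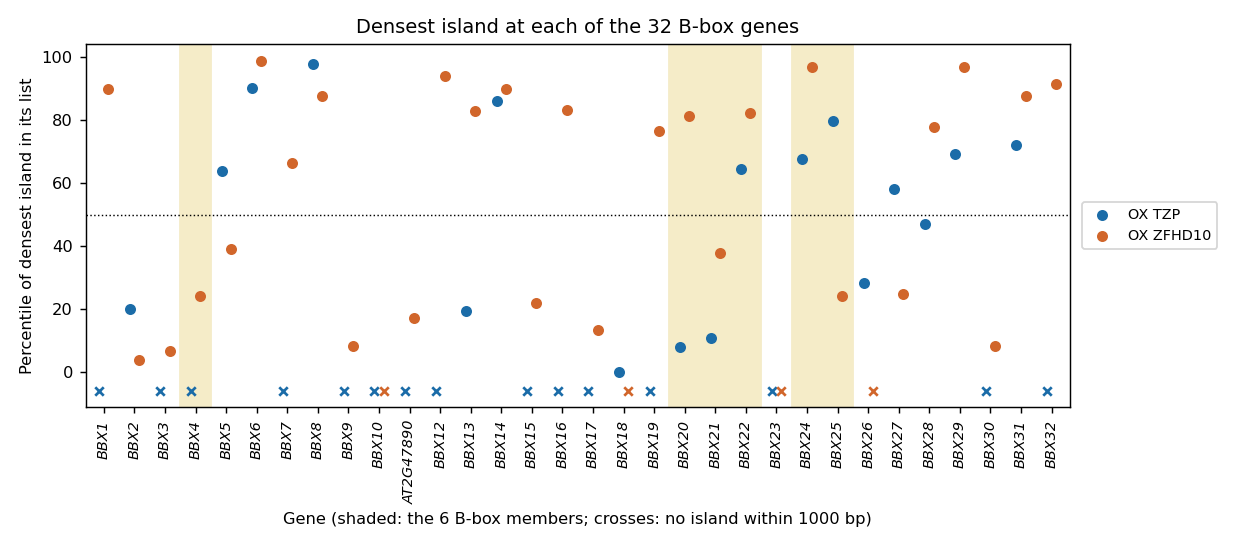
Percentile of the densest island within its list at each of the 32 B-box genes, for OX TZP (blue) and OX ZFHD10 (orange), with crosses for genes without an island within 1000 bp and shading for the 6 B-box members; AT2G47890 stands for BBX11. Points above 95 are BBX8 in OX TZP and BBX6, BBX24 and BBX29 in OX ZFHD10.

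Genes that act on HY5 protein were represented by 9 genes of COP1, the SPA family, DET1, UVR8 and the cryptochromes. An OX TZP island was found at 6 (47.2% of all genes) and an OX ZFHD10 island at 8 (65.9%), and at 4 they overlapped (26.6%). The densest OX TZP islands were at SPA4 (191 reads per kb, 164 to 222), SPA3 (171, 138 to 209) and UVR8 (166, 139 to 197), and the densest OX ZFHD10 islands at SPA1 (452.5, 426 to 480), CRY1 (342, 315 to 371) and COP1 (300.0, 256 to 349). COP1 also had an OX TZP island, inside the gene and apart from its OX ZFHD10 islands. DET1 had neither. These genes are long, with a median of 4011 bp, and longer genes meet more islands.

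Of 21 genes known as targets of HY5 in flavonoid, chlorophyll and light acclimation pathways and others, 9 had an OX TZP island (42.9%) and 16 an OX ZFHD10 island (76.2%), against 47.2% and 65.9% of all genes. HEMA1, which encodes an early enzyme of chlorophyll formation, carried the densest of both lines, with 217.5 reads per kb (174 to 268) in OX TZP and 476 (428 to 528) in OX ZFHD10. It was followed in OX TZP by CHS (180.0, 145 to 221) and F3H (178, 145 to 217), both of flavonoid synthesis, and in OX ZFHD10 by PORC (436, 358 to 526), of chlorophyll synthesis, and ABI5 (434, 408 to 461), a bZIP gene of abscisic acid responses.

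By the pair of percentiles of its densest islands, HY5 was most like OCP3, which shares both islands with it, and then SDG14 and AT3G61750 (75.6 in OX TZP and 81.9 in OX ZFHD10 for both, against 76.1 and 82.1 for HY5). This likeness rests on 2 libraries, and 157 of 10066 other genes with islands of each line lay within 5 percentile points of HY5. SDG14 and AT3G61750 had the same densities in each line (176.4 and 330 reads per kb), so they may not be separate cases. The ends of the HY5 counting intervals stood at percentiles 19.1 and 94.8 in OX TZP. In OX ZFHD10 they stood at 65.7 and 91.5, so the order of likeness is not resolved.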

How the data were processed

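Per the labels' protocols, seedlings were fixed with 1% formaldehyde for 15 minutes, chromatin was precipitated with anti-GFP, 12 PCR cycles were run on 1 ng of DNA, and 75 bp single-end sequencing followed. SICER 1.1, Bowtie 0.12.7, cutadapt 1.5 and HOMER, and the build TAIR10, appear without roles in the submitters' processing notes. SICER settings in the names of the deposited lists are a 50 bp window, a 200 bp gap and an FDR of 0.1. The deposited value is a whole-number count of reads per island, not scaled; that it is a count rests on its values and on SICER's list format. The control library and the handling of duplicate reads are not given in the sources used here. Windows up to 200 bp apart are merged, so the length and number of islands vary with depth.

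Positions are counted from 1. Genes came from the RefSeq table of TAIR10.1; OX ZFHD10 midpoints fell in genes least often at an offset of 0 bp on 3 chromosomes and 50 bp to one side on the other two, so positions were used together. Of 64 listed genes all 64 were located, and BBX11 was matched by locus alone. Exons, strand and sequences were not used here. Python 3.11.15, pandas 2.3.3, numpy 2.4.6 and scipy 1.17.1 were used, and the overlap step was tested on simulated islands. Intervals are exact Poisson and treat PCR reads as independent, so they may be too narrow. The members and lists were chosen with earlier results of these data known. Named were all members, the 4 densest other B-box genes and the 3 densest of each further list per line, and the 3 genes most like HY5; other B-box genes and features were named after their values were seen. Alternatives changed the flank, the overlap, the position rule, the islands kept, the measure ranked and the background genes.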

Additional observations from a re-analysis of the deposited data

How the results depend on the processing

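The counts of members and of other B-box genes with islands stayed within 1.5 times of those reported with no flank, flanks of 500 or 2000 bp, at least 100 bp of overlap, or midpoints in the window, and BBX4 lacked an OX TZP island in each. Within that limit, the other B-box genes with an OX TZP island went from 12 to 8 with no flank and to 15 with 2000 bp. With overlap of at least 50% of the shorter island, 5 members had overlapping islands, BBX21 dropping out. Keeping islands at or above the median reads per kb left 4 members in OX TZP, 4 in OX ZFHD10, 3 with overlapping islands, and 7 and 13 other B-box genes; this removes weaker islands by construction. Keeping islands at or above the median reads left 6 members in OX TZP, 5 in OX ZFHD10 and 4 with overlapping islands, BBX21 and BBX25 dropping out of the last. It left 7 other B-box genes in OX TZP and 16 in OX ZFHD10. Ranking by reads in place of density moved 6 of 15 percentiles beyond their counting intervals, namely HY5 in OX ZFHD10 (53.3), BBX20 in OX TZP (70.3) and in OX ZFHD10 (99.0), BBX22 in OX TZP (96.3), and BBX24 in OX TZP (97.0) and in OX ZFHD10 (70.8). Density fell with length in the OX TZP list (Spearman correlation -0.52 across islands). Among islands within 20% of the same length, chosen after seeing the data, BBX20 in OX ZFHD10 was at percentile 54.6 and BBX25 in OX TZP at 92.0. Among genes within the members' range of lengths, 42.8% had an OX TZP and 61.4% an OX ZFHD10 island. No paired analysis was possible because each line had 1 library. No island had under 47 reads (OX TZP) or 55 reads (OX ZFHD10), which limits what weak binding the lists can show.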

Other observations

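The B-box family falls into groups by the domains of its proteins, a grouping applied after the values were seen. Among the 8 genes of proteins with a pair of B-boxes and no CCT domain, BBX18 to BBX25, 6 had an OX TZP island and 6 an OX ZFHD10 island. This group holds 5 of the members described above, and of its 3 other genes BBX18 alone had an OX TZP island. Of the 7 genes of proteins with a single B-box and no CCT domain, BBX26 to BBX32, 5 had an OX TZP island and 6 an OX ZFHD10 island. In the 17 genes of proteins with a CCT domain the OX TZP list had 3 of 6 in BBX1 to BBX6, 2 of 7 in BBX7 to BBX13 and 1 of 4 in BBX14 to BBX17, and the OX ZFHD10 list had 6 of 6, 6 of 7 and 4 of 4. Of all protein-coding genes 47.2% had an OX TZP island and 65.9% an OX ZFHD10 island. These are counts of small groups in 1 library per line, and no difference between groups was tested. BBX9 and BBX30 share 1 OX ZFHD10 island, so their counts are not independent.

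BBX29 carried dense OX ZFHD10 islands over both of its ends, with 436 and 421 reads per kb (408 to 467 and 386 to 458), and OX TZP islands at the same places with 172 and 144 reads per kb (151 to 195 and 122 to 169). The BBX18 island of OX TZP, at 127 reads per kb (110 to 146), ranked 11647 of 11675 in its list and reached into FBA1.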
